A study of Rattus norvegicus with 6 samples.

Results

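The glutathione transferases examined here were 10 rat genes, Gsta2, Gsta3, Gsta4, Gstm1, Gstm2, Gstm3, Gstp1, Gstt1, Gsto1 and Mgst1, listed by name. They were represented by 17 probes among the 61537 non-control probes of the array, on which 15639 genes could be named. The tissue was renal cortex of male Sprague-Dawley rats, which were bought at 5 weeks of age and dosed for 4 weeks. The p-nitroanisole group (n = 3) received 500 mg/kg/day of p-nitroanisole, a methoxylated nitrobenzene, and the vehicle group (n = 3) received corn oil. The labels call the samples biological replicates, and the age at sampling and the route of dosing were not given in the sources used here. Expression was measured on 6 one-colour arrays, 1 per sample. The study's comparison was the treated cortex against the vehicle cortex.

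Glutathione transferases join the tripeptide glutathione to electrophilic compounds, which are then exported and trimmed to mercapturates, largely in the kidney. The soluble enzymes are dimers grouped into classes by sequence, among them alpha, mu, pi, theta and omega, and a separate membrane-bound family includes the microsomal enzyme Mgst1. Several of the genes carry an antioxidant response element, the DNA site bound by the transcription factor NRF2 when its inhibitor KEAP1 is modified. In the kidney the alpha class is abundant in the proximal tubule. The array measures RNA of the whole cortex, in which fewer cells of a type and less RNA per cell cannot be told apart.

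The upstream sequences of 3 members are shown because these genes differed most between the groups within their classes: Gstp1, the only pi member, Gsta3 of the alpha class and Gstm1 of the mu class. Each is the 250 bases before the annotated start of transcription, 5′ to 3′ on the gene's strand, from RefSeq on the GRCr8 assembly. Capitals mark matches to the core of the antioxidant response element, TGACNNNGC, searched on both strands.
Gstp1: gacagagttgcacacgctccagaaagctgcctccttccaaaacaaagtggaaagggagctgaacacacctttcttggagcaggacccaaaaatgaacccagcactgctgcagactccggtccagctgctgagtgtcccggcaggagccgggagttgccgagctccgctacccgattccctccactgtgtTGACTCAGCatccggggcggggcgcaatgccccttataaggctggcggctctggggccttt
Gsta3: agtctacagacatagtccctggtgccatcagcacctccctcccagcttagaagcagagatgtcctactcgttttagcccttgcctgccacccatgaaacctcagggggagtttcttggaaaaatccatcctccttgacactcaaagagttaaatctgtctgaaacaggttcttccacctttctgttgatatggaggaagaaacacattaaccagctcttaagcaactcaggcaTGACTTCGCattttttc
Gstm1: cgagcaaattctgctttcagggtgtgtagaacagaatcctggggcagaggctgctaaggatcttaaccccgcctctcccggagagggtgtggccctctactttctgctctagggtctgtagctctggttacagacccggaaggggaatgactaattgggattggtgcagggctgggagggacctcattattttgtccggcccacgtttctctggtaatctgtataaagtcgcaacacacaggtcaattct
The Gstp1 window is chr1:210769706-210769955 on the minus strand, the Gsta3 window chr9:31154739-31154988 on the plus strand, and the Gstm1 window chr2:198343384-198343633 on the minus strand. In Gstp1 the match was TGACTCAGC, beginning 61 bases before the start site, and its first 7 letters, TGACTCA, also matched the AP-1 motif TGANTCA. The Gsta3 match, TGACTTCGC, began 17 bases before the first of 2 annotated start sites, and the second start site had none. Neither motif was found in the Gstm1 window, which held TATAAA beginning 29 bases before the start. Windows that also included 50 bases after the start were given for 9 of the 10 members, 10 windows in all. TGACNNNGC was found in 3 of these 10 windows, those of Gstp1, Gsta3 and Gsta2, against 12.1% of the 33469 windows of all genes. TGANTCA was found in 3 of the 10, those of Gstp1, Gsto1 and Mgst1, against 7.33% of all windows. The xenobiotic response core GCGTG was in 4 of the 10, against 29.7% of all windows. A match of letters is a description of the sequence and was not tied here to binding of any factor.

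Between 66.4% and 69.2% of the probes of each array were well above background, no spot was saturated, and no 2 arrays held the same values. All 11 proximal tubule markers passed the intensity filter, and their summed relative intensity was 1480 to 1583 in p-nitroanisole arrays and 1429 to 1469 in vehicle arrays. Hepatocyte markers passed the intensity filter for 5 of 9 genes and summed to 1.58 to 1.96 in p-nitroanisole arrays and 1.60 to 1.99 in vehicle arrays. p-Nitroanisole replicate 3 was hybridised on a slide of its own, and replicates 1 and 2 shared a slide with the 3 vehicle arrays but lay in its other row. Values are therefore also given within slide 1, which leaves out replicate 3, and with array row as a block, where the vehicle arrays are set against p-nitroanisole replicate 3 alone. No slide row held both groups, so array row and treatment within slide 1 cannot be told apart. All values are relative intensities, the processed spot intensity divided by the array's 75th percentile. Differences are on the log2 scale, p-nitroanisole minus vehicle, with the standard error from limma and p-values adjusted by Benjamini-Hochberg over 32203 rows, and a call is an adjusted p under 0.05.

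Of the 10 members, 9 had a higher mean in p-nitroanisole cortex than in vehicle cortex, against 52.4% of all rows, and Gsto1 was lower, but none passed the test across all rows. Gsta2 was counted among the 9 with the 75th percentile scaling and was the exception with quantile or median scaling, where 8 were higher. The background was 24 calls among 32203 rows, 0.0745%, with 0.0497% called higher and 0.0248% called lower. At an unadjusted p under 0.05, 4 of the 10 members were higher and 0 lower, against 7.68% of all rows higher, 5.76% lower and 13.4% in either direction. In the same 4 genes, Gstm1, Gstp1, Gstt1 and Gsta3, every p-nitroanisole array was above every vehicle array, an arrangement seen in 11.9% of all rows. Gsto1 was arranged in the opposite direction, as were 10.3% of all rows. The median difference of the 10 members was 0.43, and that of all tested rows was 0.01. A difference at least as large as that of Gstm1 was found in 0.143% of all rows, and at least as large as that of Gstp1 in 0.286%. The corresponding shares were 1.92% for Gstt1 and 2.71% for Gsta3.

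**Figure D1:**
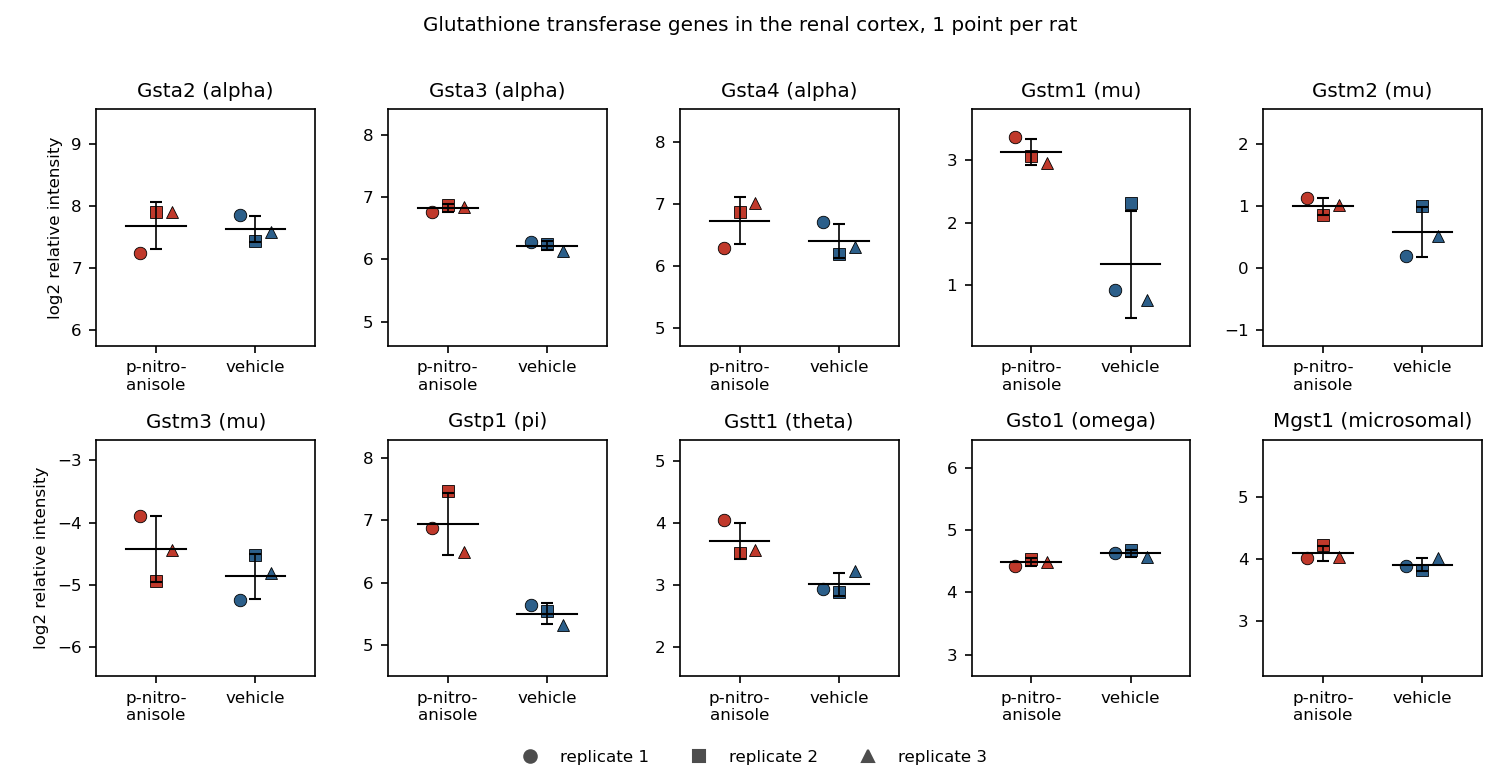
Log2 relative intensity of the brightest tested probe of each of the 10 members, with p-nitroanisole arrays left of vehicle arrays and every panel spanning the same log2 range. Each point is 1 array (n = 3 per group), its shape the replicate, with horizontal lines at group means and error bars of 1 SD of the log2 values. The groups are apart for Gstm1, Gstp1, Gstt1 and Gsta3, with p-nitroanisole above vehicle, and for Gsto1, with p-nitroanisole below vehicle.

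Gstp1 encodes the pi-class subunit, known in rat liver as the placental form and as a marker of preneoplastic foci. Its brightest probe, A_43_P13342, gave 117, 179 and 90.2 in p-nitroanisole replicates 1 to 3, against 49.98, 46.7 and 39.9 in vehicle replicates 1 to 3. The lowest treated array was thus well above the highest vehicle array, and the spread was wider among the treated animals. The means were 129 ± 45.3 in p-nitroanisole cortex and 45.5 ± 5.15 in vehicle cortex (SD, n = 3 each), and the geometric means differed 2.73-fold. On the log2 scale this was 1.45 with a standard error of 0.26, and limma's adjusted p was 0.139. The other 2 Gstp1 probes gave 27.9, 44.6 and 17.3 in p-nitroanisole replicates against 10.002, 9.11 and 7.55 in vehicle replicates, and 36.8, 58.7 and 22.8 against 13.7, 13.3 and 10.1. All 3 probes placed p-nitroanisole replicate 2 highest and replicate 3 lowest, and their log2 differences were 1.45, 1.65 and 1.58. Within slide 1 the difference of the brightest probe was 1.68, and with array row as a block it was 0.99.

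Gstm1, a mu-class subunit that is a main hepatic form in the rat, had the largest difference of the 10 members. It gave 10.3, 8.39 and 7.79 in p-nitroanisole replicates, against 1.89, 4.96 and 1.68 in vehicle replicates. The groups did not overlap, and vehicle replicate 2 stood nearer to the treated arrays than to the other 2 vehicle arrays. The 3.50-fold difference of the geometric means was 1.81 on the log2 scale, with a standard error of 0.42 and an adjusted p of 0.195 in limma. Without vehicle replicate 2 it was 2.30, with an adjusted p of 0.0931, and the lowest value on leaving out 1 array was 1.52, without vehicle replicate 3. It was 1.89 within slide 1 and 1.64 with array row as a block.

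Gstm2, another mu-class subunit, gave 2.18, 1.80 and 2.02 in p-nitroanisole replicates, against 1.15, 2.01 and 1.44 in vehicle replicates. The vehicle range reached into the treated range through replicate 2 alone. Its log2 difference was 0.42 (SE 0.21, adjusted p = 0.451 in limma), with 0.63 when vehicle replicate 2 was left out and 0.23 when vehicle replicate 1 was.

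Gstm3, also of the mu class, had dim probes that did not give the same picture. The representative probe, A_64_P025858, gave 0.0675, 0.0327 and 0.0458 in p-nitroanisole replicates, against 0.0264, 0.0434 and 0.0357 in vehicle replicates. The groups overlapped, and the difference was 0.44 (SE 0.31, adjusted p = 0.571 in limma). On leaving out 1 array it was 0.17 (without p-nitroanisole replicate 1) to 0.69 (without p-nitroanisole replicate 2), with 0.24 without vehicle replicate 1. The second probe, A_44_P391068, gave 0.0471, 0.0492 and 0.0524 in p-nitroanisole replicates, against 0.0253, 0.0295 and 0.0235 in vehicle replicates. Here the groups were apart, with a log2 difference of 0.93 (SE 0.10) and, in the fit with every probe as its own row, an adjusted p of 0.0630. Both probes were well above background on all 6 arrays.

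Gstt1 encodes a theta-class enzyme that metabolises small halogenated alkanes. It gave 16.5, 11.5 and 11.8 in p-nitroanisole replicates, against 7.65, 7.38 and 9.34 in vehicle replicates. Every treated array was above every vehicle array, with p-nitroanisole replicate 1 apart from the other two. The 1.62-fold difference was 0.69 on the log2 scale (SE 0.17, adjusted p = 0.212 in limma), with 0.77 within slide 1 and 0.55 with array row as a block.

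Gsta3, an alpha-class subunit, was the member with the smallest p-value, at position 64 of 32203 rows. Its brightest probe, A_64_P004231, gave 108, 117 and 115 in p-nitroanisole replicates, against 77.3, 76.2 and 70.5 in vehicle replicates. Both groups were tight, with means of 113 ± 4.56 in p-nitroanisole cortex and 74.7 ± 3.62 in vehicle cortex (SD, n = 3 each). The geometric means differed 1.52-fold, or by 0.60 on the log2 scale with a standard error of 0.07, and the adjusted p was 0.0787 in limma. The adjusted p was under the threshold in 2 of the 20 alternative fits, with a trended robust variance (adjusted p = 0.0102, in a fit that called 0.981% of rows) and with normexp background correction (difference 0.63, adjusted p = 0.0254, in a fit that called 0.255% of rows). The value was nearly the same within slide 1, at 0.60, and with array row as a block, at 0.62.

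The other 2 Gsta3 probes had the same direction but not the same size. Probe A_44_P491831 gave 71.8, 79.0 and 70.5 in p-nitroanisole replicates, against 52.0, 52.1 and 46.8 in vehicle replicates, a log2 difference of 0.55. Probe A_64_P035291 gave 4.09, 5.36 and 5.28 in p-nitroanisole replicates, against 1.77, 2.05 and 2.03 in vehicle replicates. This was a 2.50-fold difference, 1.32 on the log2 scale (SE 0.13), with an adjusted p of 0.0509 in the fit of all probes. The array annotation gives A_64_P004231 and A_64_P035291 the same transcript, and A_44_P491831 another. The sequence each probe reads was not used here, so the source of the larger difference was not identified.

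Gsta2 encodes an alpha subunit also known as ligandin, which binds bilirubin and haem as well as conjugating glutathione. Its brightest probe gave 152, 238 and 238 in p-nitroanisole replicates, against 232, 174 and 190 in vehicle replicates. The groups overlapped, with p-nitroanisole replicate 1 the lowest array and vehicle replicate 1 only just below the 2 highest treated arrays. The difference was 0.06 (SE 0.21, adjusted p = 0.926 in limma), and the second probe gave -0.04. Its sign turned in 7 of the 20 alternatives, with quantile and median scaling among them. Of these, slide as a block, slide 1 only and leaving out p-nitroanisole replicate 3 gave the same estimate.

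Gsta4, the alpha subunit that conjugates hydroxynonenal, a product of lipid peroxidation, gave 78.7, 117 and 130 in p-nitroanisole replicates, against 104, 73.3 and 78.9 in vehicle replicates. As in Gsta2, p-nitroanisole replicate 1 was the lowest treated array and vehicle replicate 1 the highest vehicle array. The difference was 0.33 (SE 0.23, adjusted p = 0.570 in limma), with 0.27 from the second probe. It was 0.18 within slide 1 and 0.62 with array row as a block.

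Gsto1, an omega-class enzyme with dehydroascorbate reductase and thioltransferase activity, was the only member lower in p-nitroanisole cortex. It gave 21.5, 23.3 and 22.6 in p-nitroanisole replicates, against 24.8, 25.8 and 23.7 in vehicle replicates. The groups did not overlap, by a narrow margin, and the difference was -0.14 (SE 0.07, adjusted p = 0.439 in limma). It lay between -0.20 and -0.11 over the 20 alternatives.

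Mgst1, the membrane-bound enzyme of the endoplasmic reticulum and outer mitochondrial membrane, gave 16.1, 18.8 and 16.5 in p-nitroanisole replicates, against 14.8, 14.2 and 16.2 in vehicle replicates. The groups met at p-nitroanisole replicate 1 and vehicle replicate 3. Its difference was 0.19 (SE 0.09, adjusted p = 0.448 in limma).

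**Figure D2:**
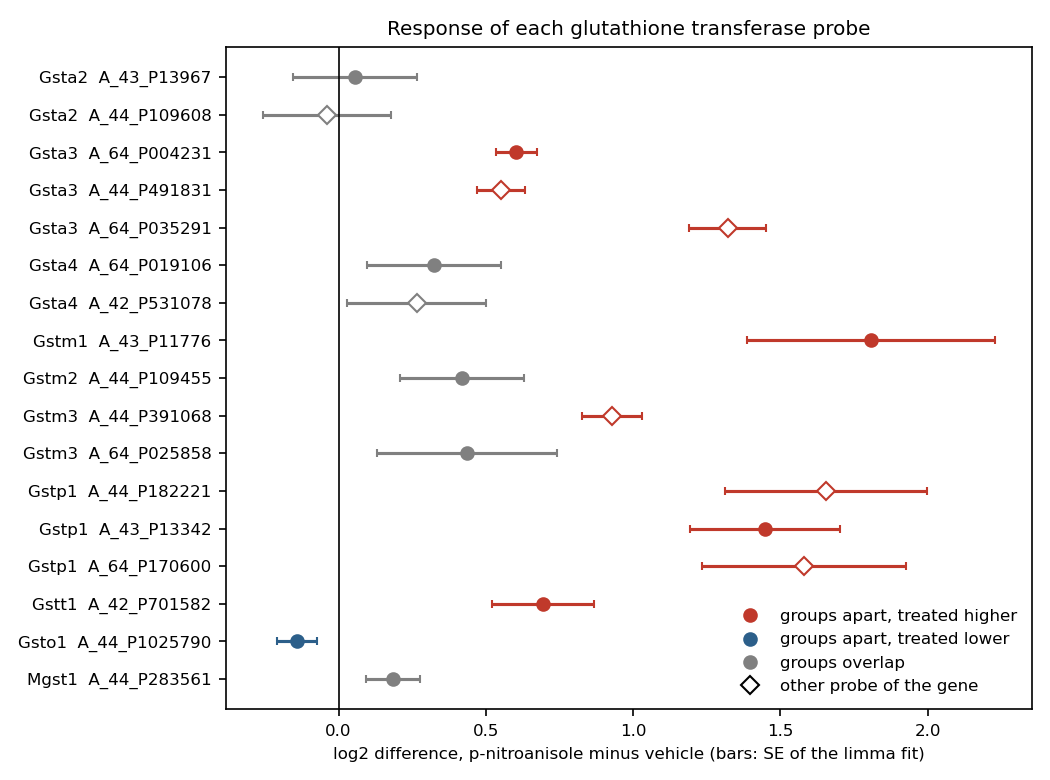
Log2 difference, p-nitroanisole minus vehicle, for each of the 17 member probes with its standard error from limma (n = 3 arrays per group), where filled circles are the probes that stand for the gene, open diamonds its other probes, and colours say whether the groups overlap. Differences are above 0 for 15 of the 17 probes, and the 3 Gstp1 probes lie between 1.45 and 1.65.

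All 17 member probes were well above background on all 6 arrays. In the fit with every probe as its own row, 15 were higher, 9 of them with groups that did not overlap, against 11.6% of 41219 probes. The 9 were the probes of Gsta3, Gstp1, Gstm1 and Gstt1 and 1 Gstm3 probe, A_44_P391068. They are not 9 separate genes. Only 1 probe, that of Gsto1, was apart in the lower direction. None of the 17 was called, where 0.0728% of all probes were.

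The alpha members had log2 differences from 0.06 to 0.60 with a median of 0.33, and the mu members from 0.42 to 1.81 with a median of 0.44. On leaving out 1 array the alpha median was 0.18 (without p-nitroanisole replicate 3) to 0.54 (without p-nitroanisole replicate 1), and the mu median 0.24 (without vehicle replicate 1) to 0.69 (without p-nitroanisole replicate 2). The mu median was 0.68 with the mean of a gene's probes. The order of the alpha and mu medians was not stable. Alpha was above mu without p-nitroanisole replicate 1 (0.54 against 0.35) and without vehicle replicate 1 (0.48 against 0.24). It was also above with array row as a block (0.62 against 0.44), and mu was above alpha in the other alternatives. The difference of response was compared within each class for 6 pairs, array by array, with an exact two-sided permutation test whose smallest possible p with 3 arrays against 3 is 0.1. Gstm1 minus Gstm2 was 1.39 (SE 0.33) and Gstm1 minus Gstm3 was 1.37 (SE 0.43). Both gave the smallest exact p of 0.1, or 0.15 after adjustment over the 6 pairs. With the mean of a gene's probes Gstm1 minus Gstm3 was 1.13 (SE 0.39). Among the alpha genes, Gsta2 minus Gsta3 was -0.55 (SE 0.22) and Gsta2 minus Gsta4 was -0.27 (SE 0.06), each again with an exact p of 0.1 and 0.15 after adjustment. With the mean of a gene's probes these were -0.82 (SE 0.22) and -0.29 (SE 0.07). Gsta3 minus Gsta4 was 0.28 (SE 0.24, exact p = 0.5). It was 0.10 to 0.42 on leaving out 1 array, and with the mean of a gene's probes it was 0.53, at the smallest exact p of 0.1. Gstm2 minus Gstm3 was -0.02 (SE 0.23, exact p = 1), and with the mean of a gene's probes it was -0.26 (SE 0.12, exact p = 0.2). No pair could pass 0.05 in this design.

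**Figure D3:**
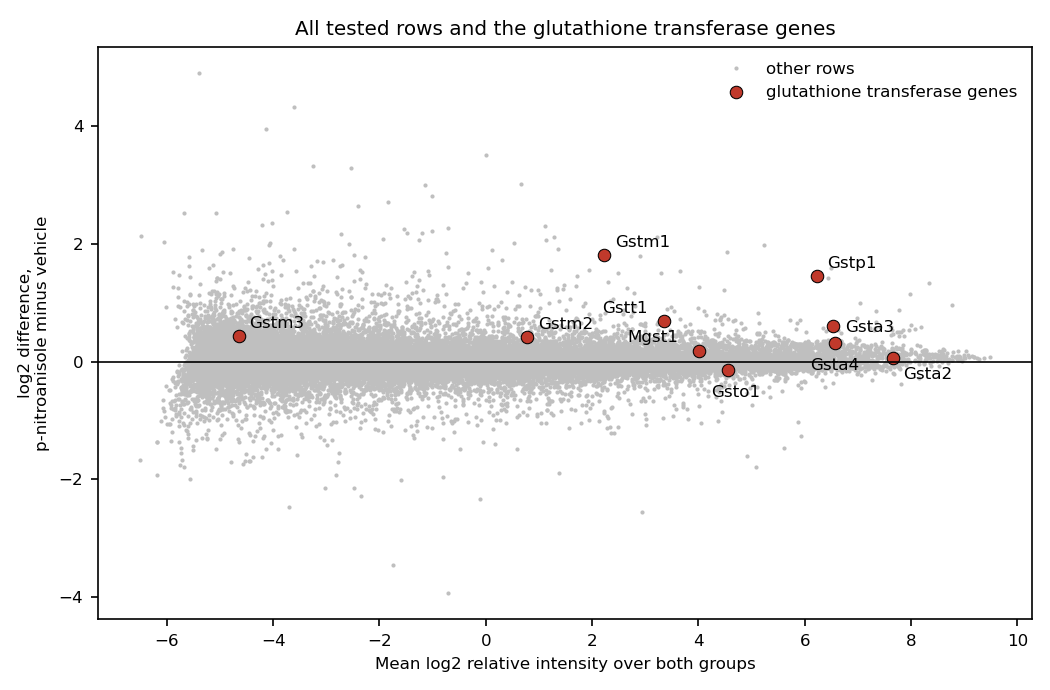
Log2 difference, p-nitroanisole minus vehicle (vertical axis), against the mean log2 relative intensity over both groups (horizontal axis) for all 32203 tested rows, in grey, with the 10 members as large points. The members' median difference is 0.43 and that of all rows 0.01, and Gstm1 at 1.81 and Gstp1 at 1.45 are the highest of the members.

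The order of the arrays within a group was compared across each class. The patterns were noticed in the values of these arrays and are given as a description, without a test. In 6 of the 6 alpha genes measured, Gsta2 to Gsta4 with Gsta1, Gsta5 and Gsta6, p-nitroanisole replicate 1 was the lowest treated array and vehicle replicate 1 the highest vehicle array, as in 11.1% of all rows. In Gsta1 and Gsta3 this rested on small vehicle margins, 207 against 206 and 77.3 against 76.2, and Gstt2, Mgst3 and Gstz1, which are not of the alpha class, had the same order. In 6 of 7 mu genes vehicle replicate 2 was the highest vehicle array, as in 31.7% of all rows. The margin of vehicle replicate 2 over the mean of the other vehicle arrays was 1.48 in Gstm1, 0.73 in Gstm4, 0.65 in Gstm7, 0.65 in Gstm2, 0.50 in Gstm3 and 0.42 in Gstm6l on the log2 scale. Gstm5 was the exception, at -0.28.

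**Figure D4:**
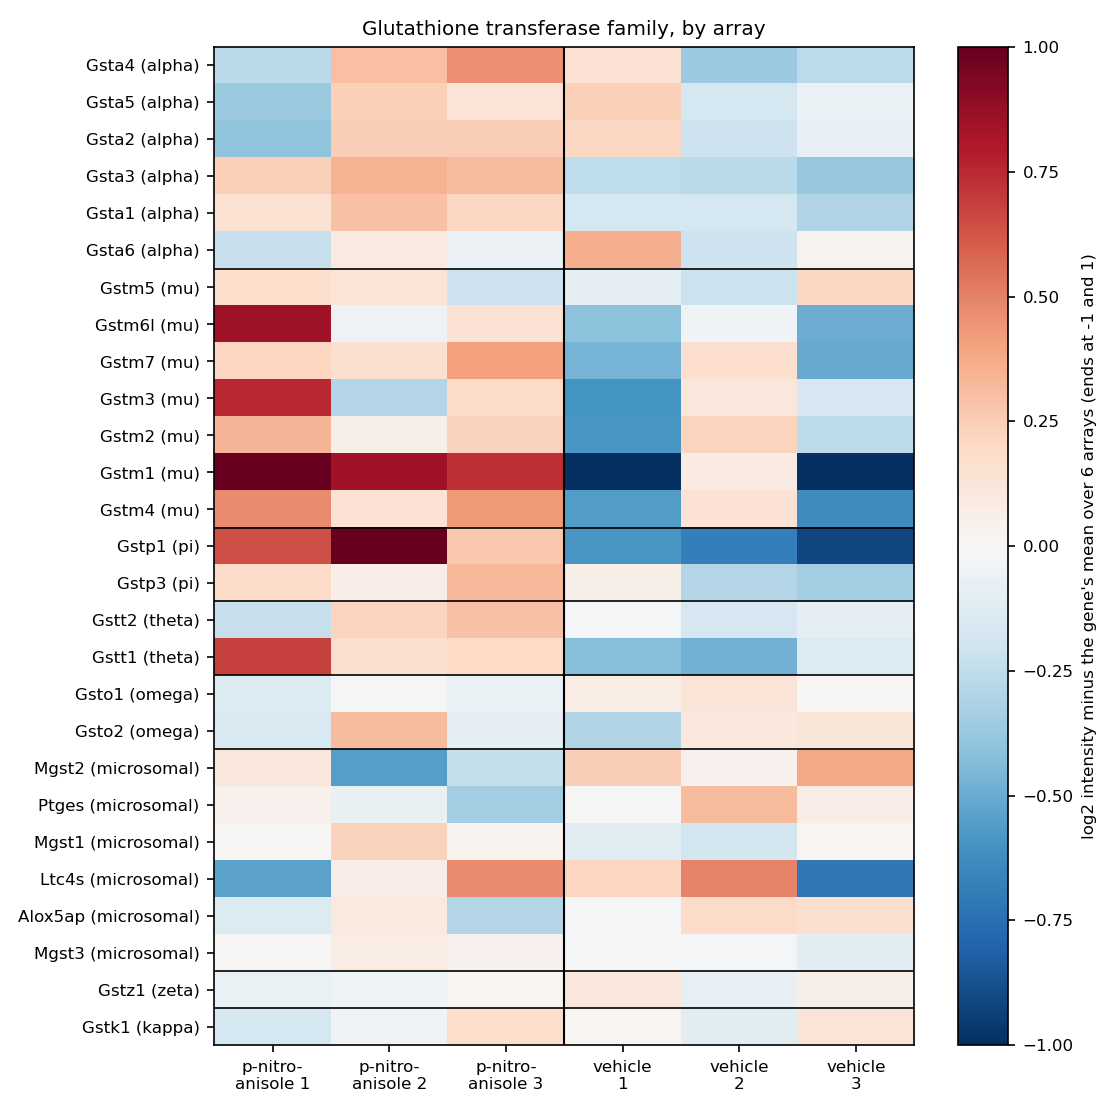
Log2 relative intensity of the tested glutathione transferase genes on each array, centred on the gene's mean over the 6 arrays, with p-nitroanisole arrays left of vehicle arrays and genes grouped by class (red above the mean, blue below it). The vehicle replicate 2 column is above the other vehicle columns in 6 of 7 mu genes, and p-nitroanisole replicate 1 is the lowest treated column in all 6 alpha genes.

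Gsta2 and Gsta5 were each other's nearest gene in array pattern among 12196 named genes, with a root mean square distance of 0.0523 on the log2 scale over the 6 arrays. Gsta5 gave 172, 262 and 244 in p-nitroanisole replicates, against 262, 197 and 212 in vehicle replicates, a difference of 0.00. Gsta3 and Gsta1 were each other's nearest genes within the family only, 0.0867 apart, Gsta1 being the gene at position 16 from Gsta3 among all named genes and Gsta3 at position 45 from Gsta1. Gsta1 gave 259, 286 and 268 in p-nitroanisole replicates against 207, 206 and 189 in vehicle replicates. It was thus also apart in the higher direction, with a log2 difference of 0.43 (SE 0.07, adjusted p = 0.133 in limma). In the annotation Gsta3, Gsta1 and Gsta6 lie on chromosome 9, and Gsta2, Gsta4 and Gsta5 on chromosome 8. Gsta6 differed by -0.13 (SE 0.17), with groups that overlapped, and its nearest family gene was Gsta5. Of the mu genes, Gstm1 to Gstm5 and Gstm7 lie on chromosome 2. Members of a class are similar in sequence, and signal shared between their probes was not separated from RNA of each gene.

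Of 23 further glutathione transferase and related membrane-enzyme genes, 17 were tested, 11 of them higher and 6 lower, against 52.4% of all rows higher. Their median difference was 0.05, which turned to -0.04 with quantile scaling (7 higher) and -0.01 with median scaling (8 higher). None was called, and 3 of the 17 had p-nitroanisole arrays all above the vehicle arrays, near the 11.9% of all rows. The mu genes Gstm4, Gstm6l and Gstm7 had the largest of these differences, 0.69 (SE 0.23), 0.63 (SE 0.26) and 0.53 (SE 0.20). The Gstm6l value comes from 1 dim probe, and its other probe was well above background on 0 of 3 arrays in each group. Gstm4 gave 2.58, 2.05 and 2.49 in p-nitroanisole replicates, against 1.26, 2.05 and 1.20 in vehicle replicates, with vehicle replicate 2 in the treated range. Mgst2, a membrane-bound relative, had the lowest difference, -0.46 (SE 0.19, adjusted p = 0.372 in limma). It was well above background on 2 p-nitroanisole and 3 vehicle arrays, and so entered the test only through the vehicle group.

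Of 9 genes of glutathione synthesis and reduction 8 were tested, and none was called. All 8 had a difference above 0, against 52.4% of all rows, or 6 with quantile scaling, with a median of 0.30. In 4 of them, Gpx2, Gpx4, Gsr and Gclm, the p-nitroanisole arrays were all above the vehicle arrays, as in 11.9% of all rows. Gpx2, a glutathione peroxidase, gave 17.9, 32.5 and 27.3 in p-nitroanisole replicates, against 6.74, 10.75 and 15.5 in vehicle replicates. Every treated array was above every vehicle array, and the difference was 1.27 (SE 0.36, adjusted p = 0.247 in limma). Gclm, the modifier subunit of the enzyme that limits glutathione synthesis, differed by 1.17 (SE 0.49, adjusted p = 0.380 in limma). It was well above background on 3 p-nitroanisole and 2 vehicle arrays, and so entered the test only through the p-nitroanisole group. Its place among the 8 above 0 and the 4 with groups apart rests on that entry.

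Downstream of conjugation, 21 genes of mercapturate formation and conjugate export were tested, with a median of 0.08 and no call. Of these, 14 were higher and 7 lower, or 12 and 9 with quantile or median scaling, against 52.4% of all rows higher. Abcc4, an exporter of organic anions, gave 9.46, 12.2 and 7.92 in p-nitroanisole replicates, against 5.30, 5.19 and 4.70 in vehicle replicates. Its groups were apart, with a difference of 0.94 (SE 0.16, adjusted p = 0.135 in limma). Dpep1, the renal dipeptidase that cleaves cysteinylglycine conjugates, differed by 0.53 (SE 0.26, adjusted p = 0.436 in limma).

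Among 24 other genes of the NRF2 pathway that were tested, 22 were higher, against 52.4% of all rows, or 20 with median scaling. Their median difference was 0.26. The groups were apart in the higher direction in 11 of the 24, against 11.9% of all rows, and in the lower direction in 1, against 10.3% of all rows. Hmox1, haem oxygenase, was the only call, at 3.51 (SE 0.16, adjusted p = 0.0200 in limma), where 0.0745% of all rows were called. Akr1b8, an aldo-keto reductase, differed by 1.51 (SE 1.05, adjusted p = 0.567 in limma), with groups that overlapped.

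By a measure of likeness over the 6 arrays, the root mean square distance between log2 profiles centred on each gene's own mean, the nearest of 12187 other genes to Gstp1 were Cenpt at 0.193, Rrm2 at 0.199 and Polr3g at 0.236. Nearest to Gstm1 were Rln1 at 0.365, S100a9 at 0.374 and Polr3g at 0.388. Nearest to Gstt1 were Osgin1 at 0.0809, Wnt5a at 0.0994 and Nkx6-1 at 0.103. The profiles were not scaled, so a distance also depends on the size of the gene's own difference, 1.81 for Gstm1 and 0.69 for Gstt1. Distances were therefore not compared between members. Polr3g, named for both Gstp1 and Gstm1, itself differed by 1.54 between the groups.

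Markers of other cell types were summed by list, and a sum follows the brightest genes of its list. Over all rows, 52.4% were higher and 0.0745% were called in either direction. Of 12 red cell genes 10 were tested, all 10 higher (9 with quantile or median scaling) and 3 called (Alas2, Hba-a3 and Hbb-b1), with summed relative intensities of 1718 to 1963 in p-nitroanisole cortex and 765 to 932 in vehicle cortex. The median red cell marker stood 1.22, 1.23 and 1.53 above the vehicle mean in p-nitroanisole replicates 1 to 3. Slc4a1 is in both the red cell and the collecting duct lists, and differed by 0.003 (SE 0.17) with groups that overlapped. Hemgn, another red cell gene, was dim in vehicle replicates, at 0.0172, 0.0335 and 0.0458. Whether it entered the test through the p-nitroanisole group alone was not examined. Of 9 neutrophil genes 4 were tested, all 4 higher and 1 called (S100a8), with sums of 2.16 to 2.46 in p-nitroanisole cortex and 1.32 to 1.46 in vehicle cortex. Elane, Ngp, Ltf, Cxcr2 and Mpo, which define that cell type, did not enter the test. Of the 11 proximal tubule genes 9 were higher, or 7 with quantile scaling and 8 with median scaling, with the sums given above and no call. Of 8 collecting duct genes 7 were lower, or all 8 with those scalings, with sums of 289 to 305 in p-nitroanisole cortex and 316 to 350 in vehicle cortex and no call. Of 9 T and NK cell genes all 9 were lower, with sums of 1.99 to 2.63 in p-nitroanisole cortex and 2.43 to 2.63 in vehicle cortex. Of 8 macrophage genes tested 6 were lower, with sums of 14.2 to 19.4 in p-nitroanisole cortex and 18.3 to 23.0 in vehicle cortex. Of 6 fibroblast genes tested all 6 were higher, with sums of 32.2 to 35.2 in p-nitroanisole cortex and 27.4 to 32.1 in vehicle cortex. Of 6 podocyte genes 5 were lower, with sums of 38.7 to 46.6 in p-nitroanisole cortex and 43.1 to 45.1 in vehicle cortex. Endothelial genes were higher in 4 of 6, or 2 with quantile or median scaling, with sums of 33.5 to 36.1 in p-nitroanisole cortex and 36.3 to 38.0 in vehicle cortex. Most of that sum was Kdr, with means of 24.9 in p-nitroanisole and 26.7 in vehicle cortex and groups that overlapped. Thick limb and distal tubule genes were higher in 3 of 5, or 2 with quantile scaling, with sums of 362 to 375 in p-nitroanisole cortex and 289.98 to 408 in vehicle cortex. No gene of these 6 lists was called. The part of these cells in the differences of the glutathione transferase genes was not tested.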

How the data were processed

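RNA of renal cortex from 3 p-nitroanisole and 3 vehicle rats was hybridised to 1-colour Agilent rat arrays. Spot intensity was extracted with Agilent Feature Extraction 10.7, with local background subtracted and spatially detrended, per the file headers. The deposited signal table of the series held the same intensities divided by 1 constant per array, as checked against them. Its column medians were 0.109, 0.108 and 0.111 in p-nitroanisole and 0.105 in each vehicle array, and its direction and order of probes were those of the scanner values.

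From these, log2 of the processed intensity (floor 1) minus each array's 75th percentile over 61537 probes was tested with limma 3.58.1 in R 4.3.3. Probes entered if well above background on all 3 arrays of a group, and the brightest tested probe stood for a named gene, which left 32203 rows and 12201 named genes. Genes were named by accession through RefSeq's gene table, whose assembly (GRCr8) is later than the rn4 named in the array headers. The limma fit was run on simulated data with normal noise drawn from its own fitted variances. No slide or row effect was simulated, so this did not test the fit for such effects. Only 3 arrays a group limits the precision.

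The members and gene lists were chosen with earlier results of these data known. Of each pathway list the text names the genes called and the 2 with the largest differences, or 4 for the other glutathione transferases, and marker lists are given by counts, sums and called genes. The limma p-values set each group difference against the spread between arrays within groups, moderated over all rows. Effects of slide and array row may be part of both. Samples of the same replicate number did not deviate together (r = -0.01, 0.04 and -0.01), so the numbers were not taken to pair them. Alternatives covered scaling, background, filter, probe choice, variance, slide, array row, replicate block, threshold and leaving out each array.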

Additional observations from a re-analysis of the deposited data

How the results depend on the processing

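The number of called rows, 24 in the fit reported, was the result most dependent on processing. It was 82 with normexp background correction (74 higher and 8 lower, against 16 and 8), 2 without a filter on dim probes, 14 with the mean of a gene's probes, 316 with a trended robust variance, 9 with slide as a block, 15 within slide 1, and 0 at an adjusted p of 0.01. With array row as a block it was 999 rows, a comparison that rests on p-nitroanisole replicate 3. With the replicate block it was 1, and no member's call changed. On leaving out 1 array it was 0 to 15: 0 without p-nitroanisole replicate 1, 6 without replicate 2 and 15 without replicate 3, and 1, 0 and 9 without vehicle replicates 1, 2 and 3, with the filter and probe choice repeated on the remaining arrays. Members called were 1, Gsta3, with normexp and with the trended robust variance, and 0 in the other 18 alternatives. The pi value was 0.99 with array row as a block. Gsta2 turned to -0.057 with quantile scaling, -0.00013 with median scaling, -0.053 with slide as a block or within slide 1, and was -0.053 to 0.27 on leaving out 1 array, below 0 without p-nitroanisole replicate 2, p-nitroanisole replicate 3 or vehicle replicate 2 (-0.04). Gstm2 minus Gstm3 was 0.063 with normexp, -0.26 with the mean of a gene's probes and -0.20 to 0.18 on leaving out 1 array. The cause of these changes was not tested. The other 9 members kept their direction in all 20 alternatives, which are not 20 separate checks of it. The filter, every-probe, variance, replicate block and threshold alternatives left each member's difference unchanged. Slide as a block, slide 1 only and leaving out p-nitroanisole replicate 3 gave the same estimate. The planned normexp on mean spot signals was not run, and median spot signals, chosen after seeing the data, were used.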

Other observations

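Values of further glutathione transferase relatives, chosen after they were seen, are given without explanation. Mgst3, a microsomal glutathione transferase, gave 209, 218 and 213 in p-nitroanisole replicates, against 208, 204 and 191 in vehicle replicates, apart by a narrow margin (log2 difference 0.09, SE 0.07). A second Mgst3 probe gave 74.3, 78.8 and 78.2 in p-nitroanisole replicates, against 67.9, 66.9 and 66.0 in vehicle replicates (0.20, SE 0.06). The remaining Mgst3 probe, without vehicle replicate 3, where it carried an outlier flag, differed by 0.09. Gstp3, a further pi-class gene, gave 0.166, 0.153 and 0.184 in p-nitroanisole replicates, against 0.152, 0.119 and 0.115 in vehicle replicates, and these groups were also apart (0.39, SE 0.13, adjusted p = 0.314 in limma). Ptges, a prostaglandin E synthase of the same membrane family as Mgst1, gave 2.18, 2.01 and 1.66 in p-nitroanisole replicates, against 2.12, 2.63 and 2.22 in vehicle replicates, with groups that overlapped (-0.25, SE 0.13). Gstz1 and Gstk1, of the zeta and kappa classes, differed by -0.06 (SE 0.08) and -0.03 (SE 0.11), also with overlap. Gstm6, Gstt4 and Hpgds were well above background on 0 of the 6 arrays.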
